A study of Caenorhabditis elegans with 12 samples.

Results

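The 10 genes described here, her-1, tra-1, tra-2, tra-3, fem-1, fem-2, fem-3, xol-1, sdc-1 and sdc-3, form the core of the sex determination pathway of Caenorhabditis elegans, a nematode worm with XO males and XX hermaphrodites. They were chosen by gene name from a count table of 20182 genes, and all 10 were found in it. The table came from RIP-seq (RNA immunoprecipitation followed by sequencing), in which a FLAG-tagged protein was pulled out of worm lysate with anti-FLAG beads and the RNA that came with it (the IP) was sequenced next to total lysate RNA (the input). The study asked which mRNAs associate with LIN41, a TRIM-NHL protein that binds RNA and represses its target mRNAs during larval development. The control was SART-3, a protein tagged in a comparable way.

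There were 4 groups of 3 libraries each, from 3 independent experiments. LIN41 IP and LIN41 input came from lin-41(n2914) worms in which the transgene xeSi197 supplied FLAG- and GFP-tagged LIN41 under the promoter and the 3' untranslated region of lin-41 itself. SART-3 IP and SART-3 input came from worms that carried xeSi55, a transgene for SART-3 with GFP, his and FLAG tags under the dpy-30 promoter and the xrn-2 3' untranslated region, so that the control bait was driven by another promoter and the strain did not have the lin-41 allele of the LIN41 strain. Both strains also carried him-5(e1490), a mutation that raises the share of XO males, so every culture was a mixture of the sexes. Whole worms of the L3/L4 stages were used after about 30 h of growth at 25 °C. All IPs were run in sequencing lane 4 and all inputs in lane 3, and in a comparison of IP with input the lane and the type of library cannot be told apart.

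In this pathway the number of X chromosomes sets the activity of xol-1, which is high in XO embryos and turns off the sdc genes. In XX embryos the SDC proteins silence her-1 and start dosage compensation, whereas in XO animals the secreted HER-1 protein inhibits the membrane receptor TRA-2, which frees the FEM proteins to promote degradation of TRA-1. TRA-1 is the transcription factor that directs female somatic development, and several of these mRNAs, tra-2 and fem-3 among them, are regulated in the germline through their 3' untranslated regions.

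Total counts ranged from 291466 to 404046 in the LIN41 IPs, from 859814 to 2024430 in the LIN41 inputs, from 412440 to 612445 in the SART-3 IPs and from 1274703 to 1401265 in the SART-3 inputs. Levels are given as CPM, the count scaled to a common library size with TMM factors. A level of 3 counts, the limit that a count of 0 allows, corresponded to between 8.23 and 13.7 CPM in the LIN41 IPs and between 1.3 and 3.35 CPM in the LIN41 inputs, and to between 5.05 and 8.45 CPM in the SART-3 IPs and between 1.87 and 2.22 CPM in the SART-3 inputs. These limits cover counting error only, and the IPs were the shallower libraries. Replicate 1 stood apart in every group: its counts differed from those of replicates 2 and 3 by a chi-square per degree of freedom of 3.61 to 15.1, against 1.62 to 2.22 between replicates 2 and 3. In these bulk samples, fewer cells of a type and less RNA per cell cannot be told apart.

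**Figure D1:**
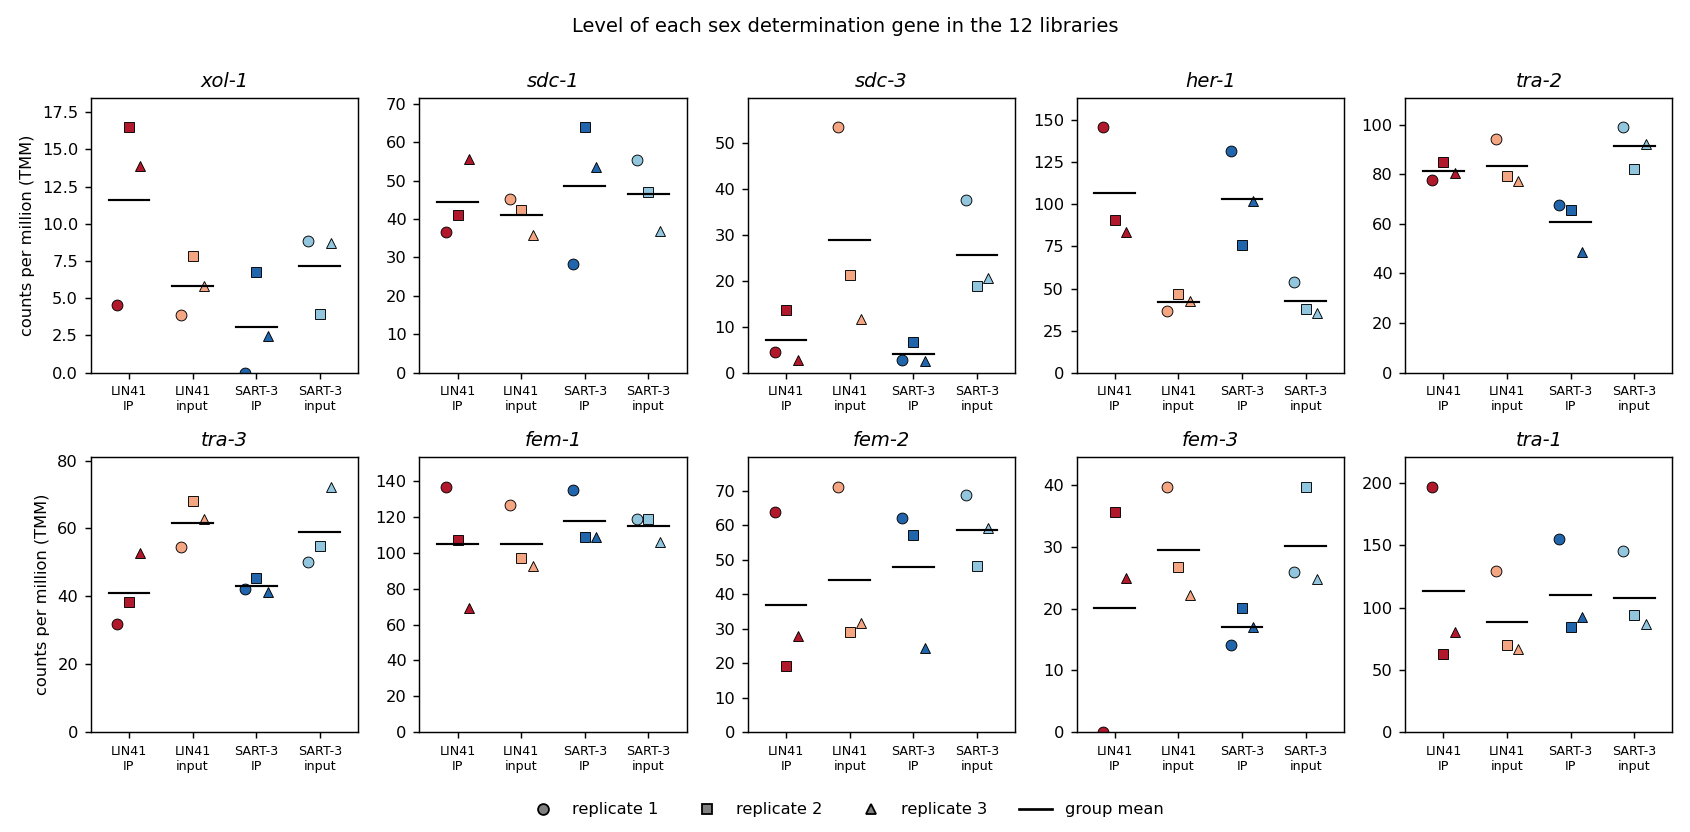
Level in CPM (vertical axis, linear, starting at 0 and scaled per gene) of the 10 sex determination genes in each of the 12 libraries, by group, with replicates 1, 2 and 3 as circles, squares and triangles and the group mean as a line. The her-1 panel shows all IP libraries above all inputs (75.7 to 146 CPM against 35.5 to 53.9 CPM), and the tra-3 panel shows IP libraries below the inputs of their own strain. The share of all genes with ranges apart was not counted.

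her-1 was higher in both IPs than in the inputs and sdc-3 was lower in both, whereas the other genes stayed closer to their inputs. Of the 10 genes, 9 passed a filter on low counts and xol-1 did not, which left 12036 genes in all for the tests. Of these 9, 1 was higher (her-1) and 1 lower (sdc-3) in LIN41 IP than in LIN41 input at an adjusted p under 0.05 (edgeR quasi-likelihood test), while 8.87% of all 12036 genes were called higher and 5.33% lower. In SART-3 IP against SART-3 input, 1 was higher (her-1) and 2 were lower (tra-2 and sdc-3), while 10.5% of all genes were called higher and 7.79% lower. Among 9 genes, counts of 1 or 2 are too small to be set apart from these shares. The median log2 ratio of the 9 genes was -0.05 with LIN41, against -0.07 over all genes, and -0.28 with SART-3, against -0.03 over all genes.

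**Figure D2:**
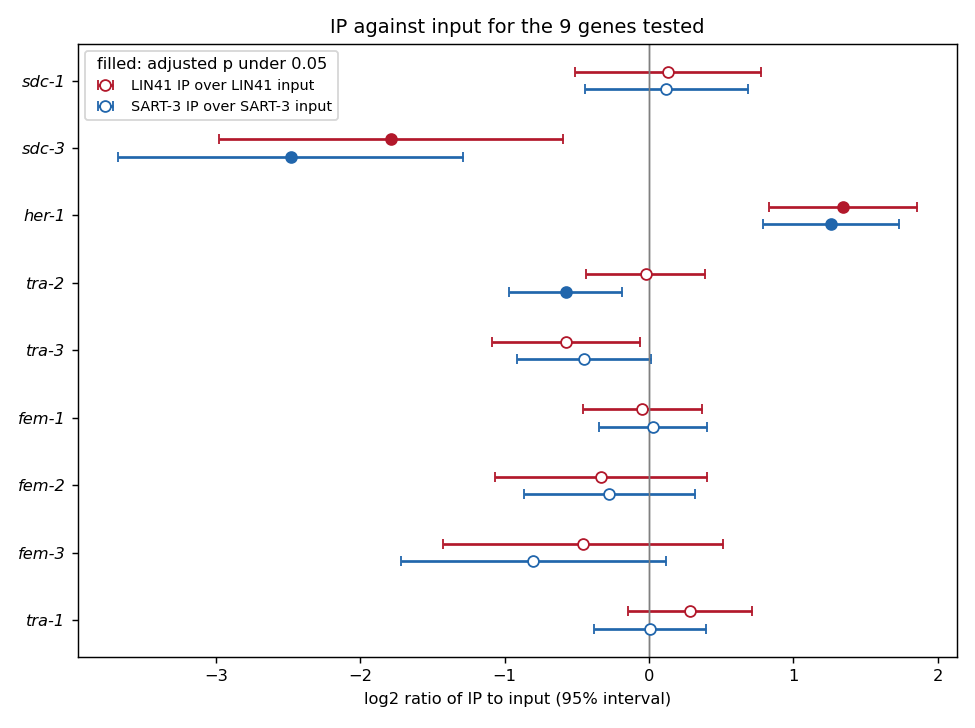
Log2 ratio of IP to input (horizontal axis) for the 9 tested genes, with LIN41 above SART-3 for each gene, whiskers showing 95% intervals and filled points marking an adjusted p under 0.05 in the edgeR quasi-likelihood test. her-1 lies to the right with both baits (1.35 and 1.26), sdc-3 to the left with both (-1.79 and -2.48), and tra-2 to the left with SART-3 (-0.58).

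LIN41-specific enrichment is the log2 IP-to-input ratio with LIN41 minus that with SART-3, and it asks whether an mRNA came down with LIN41 more than with the control. None of the 9 genes passed this test (edgeR quasi-likelihood test), in either direction and under any of the alternatives run. Over all genes 0.0415% were called higher and 0% lower, so a count of 0 among 9 genes is near that share. None of the 9 had an unadjusted p under 0.05, against 113 genes higher and 121 lower at that level among all 12036. DESeq2 and limma-voom also called none of the 9. The values ran between -0.12 for tra-3 and 0.70 for sdc-3 (95% interval -1.25 to 2.65), 6 were positive and 3 negative, and their median was 0.08, against -0.03 over all genes. A p that misses the threshold does not show that the baits took up these mRNAs alike, since every one of the 9 intervals spans more than 1 unit on the log2 scale. The enrichment is made from the same IP and input libraries as the ratios, so these comparisons are not independent of each other.

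**Figure D3:**
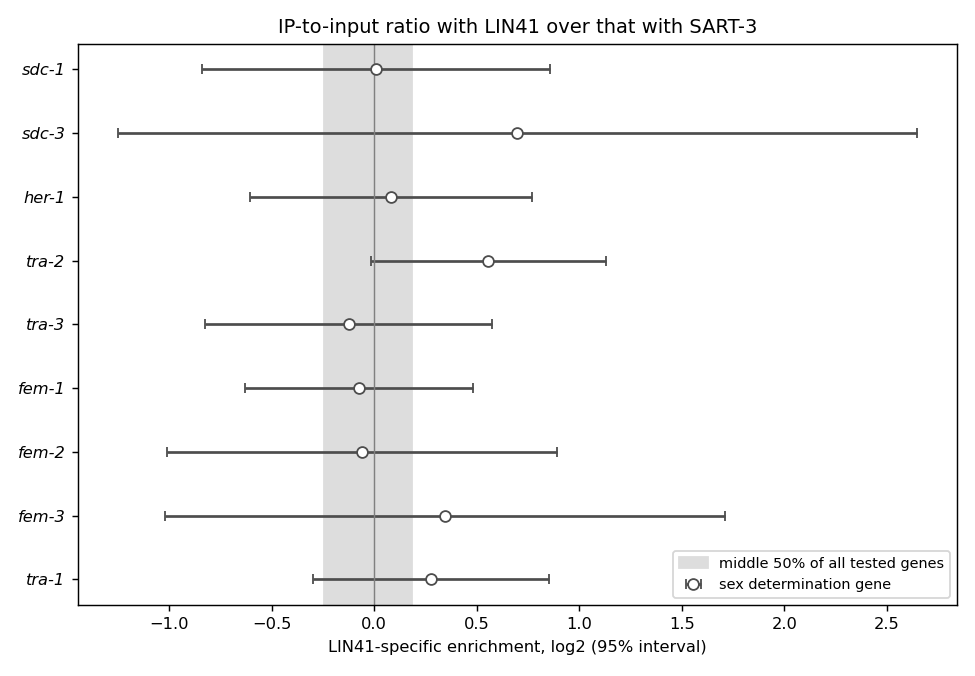
LIN41-specific enrichment (log2 IP-to-input ratio with LIN41 minus that with SART-3, horizontal axis) of the 9 tested genes with 95% intervals, and the middle 50% of all 12036 tested genes as a grey band. Every interval includes 0, and that of tra-2 does so by the smallest margin, at -0.0175 to 1.13.

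The X chromosome switch gene xol-1, which encodes a protein related to small-molecule kinases, was the least covered of the 10 genes and lay close to the detection limit. It lies on chromosome X at 8041313 to 8044409 (WBcel235 assembly). It had 1, 6 and 5 counts in the LIN41 IPs and 9, 7 and 6 counts in the LIN41 inputs, equal to 4.57, 16.5 and 13.9 CPM in the IPs and 3.89, 7.81 and 5.79 CPM in the inputs. It had 0, 4 and 1 counts in the SART-3 IPs and 12, 6 and 14 counts in the SART-3 inputs, equal to 0, 6.73 and 2.43 CPM in the IPs and 8.87, 3.92 and 8.72 CPM in the inputs. Replicates 2 and 3 of the LIN41 IP were therefore higher than every other library, while replicate 1 of the LIN41 IP lay among the inputs. In an edgeR quasi-likelihood fit without the filter on low counts, chosen for xol-1 after seeing the data, its log2 IP-to-input ratio was 1.08 (SE 0.649, adjusted p = 0.324) with LIN41 and -1.02 (SE 0.743, adjusted p = 0.43) with SART-3, and the difference between these ratios was 2.09 (SE 0.975, adjusted p = 1). In that fit the difference for xol-1 had an unadjusted p of 0.0318 by the edgeR quasi-likelihood test and did not pass the adjustment over all genes.

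The sdc genes encode zinc-finger proteins that act with SDC-2 in XX animals to repress her-1 and to bring the dosage compensation complex to the X chromosomes. sdc-3 (chromosome V, 15039148 to 15048207) was the gene with the largest deficit in the IPs. Its level was 4.57, 13.7 and 2.78 CPM in the LIN41 IPs, from 1, 5 and 1 counts, against 53.5, 21.2 and 11.6 CPM in the LIN41 inputs, from 124, 19 and 12 counts. In the SART-3 libraries it was 2.82, 6.73 and 2.43 CPM in the IPs, from 1, 4 and 1 counts, against 37.7, 18.9 and 20.6 CPM in the inputs, from 51, 29 and 33 counts. All SART-3 IPs lay below all SART-3 inputs, whereas the highest LIN41 IP lay above the lowest LIN41 input. For this and the other comparisons of ranges, the share of all genes without overlap was not counted. On the log2 scale sdc-3 was lower in the LIN41 IPs by -1.79 (SE 0.57, 95% interval -2.98 to -0.595, adjusted p = 0.0423) and lower in the SART-3 IPs by -2.48 (SE 0.57, 95% interval -3.68 to -1.29, adjusted p = 0.00659; edgeR quasi-likelihood test, Benjamini-Hochberg adjusted over all 12036 genes). Only 1.39% of all tested genes had a lower ratio with LIN41, and 0.241% with SART-3.

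Both sdc-3 calls rested on 7 reads in the LIN41 IPs and 6 reads in the SART-3 IPs, and they depended on single libraries. With LIN41 the log2 value was -0.96 (adjusted p = 0.348) without replicate 1 and -1.73 (adjusted p = 0.148) without replicate 3, and the call was lost without LIN41 IP replicate 1 (-1.26, adjusted p = 0.261) or replicate 3 (-1.59, adjusted p = 0.145), without LIN41 input replicate 1 (-1.31, adjusted p = 0.192), without SART-3 IP replicate 3 (-1.79, adjusted p = 0.0588) and without SART-3 input replicate 1 (-1.77, adjusted p = 0.0549). With SART-3 it was lost without replicate 3 (-2.26, adjusted p = 0.141) and without SART-3 IP replicate 1 (-1.92, adjusted p = 0.0854). DESeq2 gave adjusted p = 0.101 with LIN41 and adjusted p = 0.0107 with SART-3, and edgeR without the replicate block gave adjusted p = 0.14 and adjusted p = 0.064.

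sdc-1 (chromosome X, 16275763 to 16282534) did not follow sdc-3. It had 36.6, 41.1 and 55.6 CPM in the LIN41 IPs against 45.3, 42.4 and 35.7 CPM in the LIN41 inputs, and 28.2, 63.9 and 53.4 CPM in the SART-3 IPs against 55.4, 47 and 36.8 CPM in the SART-3 inputs. The IP and input ranges overlapped in both strains, and the log2 ratio was 0.13 (95% interval -0.514 to 0.775) with LIN41 and 0.12 (95% interval -0.441 to 0.683) with SART-3. These intervals leave room for differences in either direction.

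her-1, the gene of the secreted male signal, was the gene that was higher in both IPs than in their inputs. It lies on chromosome V at 9697015 to 9702035. Its level was 146, 90.5 and 83.4 CPM in the LIN41 IPs, from 32, 33 and 30 counts, against 36.7, 46.9 and 42.5 CPM in the LIN41 inputs, from 85, 42 and 44 counts. In the SART-3 libraries it was 132, 75.7 and 102 CPM in the IPs, from 47, 45 and 42 counts, against 53.9, 37.9 and 35.5 CPM in the inputs, from 73, 58 and 57 counts. The IP and input ranges did not overlap in either strain, and replicate 1 was the highest IP library of each. How many of all genes had ranges apart in this way was not counted.

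her-1 was 2.54-fold higher in the LIN41 IPs (log2 1.35, SE 0.246, 95% interval 0.832 to 1.86, adjusted p = 0.00194) and 2.4-fold higher in the SART-3 IPs (log2 1.26, SE 0.225, 95% interval 0.792 to 1.73, adjusted p = 0.0019; edgeR quasi-likelihood test). The ratio exceeded that of 96.7% of all tested genes with LIN41 and of 96.9% with SART-3. With LIN41 the call stood in 28 of 28 fits (log2 0.963 to 1.55, adjusted p 6.28e-06 to 0.0397), and with SART-3 in 27 of 28, the exception being the fit without replicate 3 (log2 1.16, adjusted p = 0.123). The IP-to-input ratio did not differ detectably between the baits: the LIN41-specific enrichment was 0.08 (SE 0.329, 95% interval -0.604 to 0.771, adjusted p = 1).

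Gene length went with the IP-to-input ratio in these libraries. her-1 has the shortest deposited gene length of the 10 genes, 619 bp, and sdc-3 the longest, 6453 bp. Across the 12036 tested genes Spearman's rho between length and the log2 IP-to-input ratio was -0.452 with LIN41 and -0.501 with SART-3, and across the 9 tested pathway genes it was -0.183 and -0.35; the genes share the same libraries and are not independent replicates. When the length trend of each library was removed with offsets, her-1 was still higher in the IPs, by 1.13 with LIN41 (adjusted p = 0.000779) and 0.99 with SART-3 (adjusted p = 0.00119). The offsets used the deposited length of her-1, which is neither its WBcel235 coding length, 525 bp, nor its exon length, 1127 bp. Offsets with another length were not tested. With the same offsets sdc-3 was at -1.22 with LIN41 (adjusted p = 0.135) and at -1.95 with SART-3 (adjusted p = 0.0163), so its call with LIN41 was lost and its call with SART-3 stood.

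tra-2 encodes the membrane receptor that HER-1 inhibits, and of the 9 tested genes it had the lowest p-value for a difference between the baits. It lies on the minus strand of chromosome II at 6955384 to 6965673. Its level was 77.7, 85 and 80.6 CPM in the LIN41 IPs against 94.1, 79.2 and 77.2 CPM in the LIN41 inputs, and 67.6, 65.6 and 48.5 CPM in the SART-3 IPs against 99, 82.3 and 92.2 CPM in the SART-3 inputs. All LIN41 IPs lay above all SART-3 IPs, and all SART-3 IPs lay below all SART-3 inputs, while LIN41 IPs and LIN41 inputs overlapped. For neither separation was the share over all genes counted. The log2 ratio was -0.02 (SE 0.196, 95% interval -0.435 to 0.388) with LIN41 and -0.58 (SE 0.188, 95% interval -0.971 to -0.185, adjusted p = 0.0387 by the edgeR quasi-likelihood test) with SART-3. The LIN41-specific enrichment was 0.55 (SE 0.273, 95% interval -0.0175 to 1.13), with an unadjusted p of 0.0567 and an adjusted p of 1, and the direct comparison of LIN41 IP with SART-3 IP gave 0.43 (SE 0.225, adjusted p = 0.634).

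The lower level of tra-2 in the SART-3 IPs was close to the threshold and was called in 14 of 28 fits. It was lost with length offsets (log2 -0.09, adjusted p = 0.789), with DESeq2 (adjusted p = 0.103), with limma-voom (adjusted p = 0.0582), without the replicate block (adjusted p = 0.0996) and without replicate 2 (adjusted p = 0.0931) or replicate 3 (adjusted p = 0.445). Of single libraries, it was lost without SART-3 IP replicate 1 (adjusted p = 0.125) or 3 (0.214), SART-3 input replicate 1 (0.0791), 2 (0.0747) or 3 (0.179), LIN41 IP replicate 2 (0.0546) or 3 (0.0578), or LIN41 input replicate 3 (0.0544). tra-2 is also the only one of the 10 genes whose exons overlap those of another counted gene, ceh-38, over 26 bp on the opposite strand. The log2 ratio of ceh-38 was -2.02 with LIN41 (adjusted p = 0.00594) and -2.15 with SART-3 (adjusted p = 0.00163), and whether counting used the strand is not given in the sources used here.

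tra-3 encodes a calpain protease that cleaves TRA-2 and promotes female development (chromosome IV, 14436445 to 14444183). It had 32, 38.4 and 52.8 CPM in the LIN41 IPs against 54.4, 68 and 62.7 CPM in the LIN41 inputs, and 42.3, 45.4 and 41.2 CPM in the SART-3 IPs against 50.2, 54.9 and 72.3 CPM in the SART-3 inputs. The IPs of each strain lay below its inputs without overlap, and the share of all genes with such separate ranges was not counted. The log2 ratios, -0.57 with LIN41 (SE 0.246, unadjusted p = 0.0303, adjusted p = 0.123) and -0.45 with SART-3 (SE 0.221, unadjusted p = 0.0553, adjusted p = 0.157), did not pass the edgeR threshold. Scaled by total counts, which moved the median log2 ratio of all genes to -0.406 with LIN41 and -0.322 with SART-3, the values were -0.90 (adjusted p = 0.0215) and -0.74 (adjusted p = 0.0323). The enrichment was -0.12 (95% interval -0.825 to 0.577).

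The fem genes encode the proteins that promote male development by marking TRA-1 for degradation: FEM-1 is an ankyrin repeat protein that joins the CUL-2 ubiquitin ligase, FEM-2 is a protein phosphatase, and FEM-3 is the partner that TRA-2 holds back. None of their 6 log2 IP-to-input ratios passed the threshold in edgeR, DESeq2 or limma-voom, and none had an unadjusted p under 0.05 in the edgeR quasi-likelihood test reported here. fem-1 (chromosome IV, 5533140 to 5537962) had overlapping IP and input ranges in both strains, with 137, 107 and 69.5 CPM in the LIN41 IPs against 127, 97.1 and 92.7 CPM in the LIN41 inputs, and 135, 109 and 109 CPM in the SART-3 IPs against 119, 119 and 106 CPM in the SART-3 inputs. Its log2 ratio was -0.05 (95% interval -0.46 to 0.366) with LIN41 and 0.03 (95% interval -0.345 to 0.401) with SART-3, and the enrichment was -0.07 (95% interval -0.631 to 0.482).

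fem-2 (chromosome III, 632019 to 634626) varied widely between replicates. It had 64, 19.2 and 27.8 CPM in the LIN41 IPs against 71.2, 29 and 31.8 CPM in the LIN41 inputs, and 62, 57.2 and 24.3 CPM in the SART-3 IPs against 68.7, 48.3 and 59.2 CPM in the SART-3 inputs. Its log2 ratio was -0.34 (95% interval -1.07 to 0.401) with LIN41 and -0.28 (95% interval -0.869 to 0.319) with SART-3.

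fem-3 (chromosome IV, 9104966 to 9107607) was not detected in LIN41 IP replicate 1, where 0 counts allow a level of up to 13.7 CPM. The 2 other LIN41 IPs had 35.7 and 25 CPM, against 39.7, 26.8 and 22.2 CPM in the LIN41 inputs, and the SART-3 IPs had 14.1, 20.2 and 17 CPM, against 25.9, 39.8 and 24.9 CPM in the SART-3 inputs. The SART-3 IPs lay below the SART-3 inputs without overlap, a separation whose share over all genes was not counted. Neither log2 ratio passed the threshold (-0.46 with LIN41, SE 0.465, adjusted p = 0.538, and -0.80 with SART-3, SE 0.44, adjusted p = 0.206, edgeR). With SART-3 the unadjusted p of fem-3 in edgeR was 0.0834, but 0.0475 in the likelihood ratio test, 0.0415 with total counts and 0.0179 without the filter, and its adjusted p stayed over 0.05 in all 27 fits (0.0716 to 0.479). With a standard error of 0.653, the enrichment of fem-3, 0.34, had an interval of -1.02 to 1.71.

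tra-1 encodes the GLI-family zinc-finger protein at the end of the pathway (chromosome III, 11170890 to 11195201). It had 197, 63.1 and 80.6 CPM in the LIN41 IPs against 129, 70.3 and 66.6 CPM in the LIN41 inputs, and 155, 84.1 and 92.2 CPM in the SART-3 IPs against 145, 94 and 86.6 CPM in the SART-3 inputs. Replicate 1 was the highest library of every group. The log2 ratio was 0.28 (95% interval -0.146 to 0.71, adjusted p = 0.375) with LIN41 and 0.00471 (95% interval -0.384 to 0.393) with SART-3. With length offsets the value with LIN41 was 0.77 (adjusted p = 0.0222, edgeR quasi-likelihood test), the only 1 of 28 fits in which it was called. With SART-3 the value ran from -0.29 to 0.49 over 28 fits and was called in 0. The enrichment without offsets was 0.28 (95% interval -0.299 to 0.853), and over 28 fits it ran from 0.0305 to 0.453.

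The input libraries give the level of each mRNA in whole worms, which was compared between genes per kb of deposited gene length. In LIN41 input the order was her-1 (67.9 ± 8.23 CPM per kb, SD, n = 3), fem-1 (53.3 ± 9.31), fem-2 (32.6 ± 17.5), tra-3 (31.7 ± 3.53), tra-1 (26.4 ± 10.4), fem-3 (25.3 ± 7.79), tra-2 (17.6 ± 1.95), sdc-1 (11.4 ± 1.37), sdc-3 (4.46 ± 3.41) and xol-1 (3.71 ± 1.25). In SART-3 input it was her-1 (68.6 ± 16.2 CPM per kb, SD, n = 3), fem-1 (57.9 ± 3.79), fem-2 (43.5 ± 7.56), tra-1 (32.3 ± 9.43), tra-3 (30.4 ± 5.97), fem-3 (25.9 ± 7.16), tra-2 (19.2 ± 1.77), sdc-1 (12.9 ± 2.59), xol-1 (4.57 ± 1.8) and sdc-3 (3.99 ± 1.61). The orders were alike in both strains but for the neighbours tra-1 and tra-3, and xol-1 and sdc-3.

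Neighbours in these orders mostly did not differ beyond their spread. In LIN41 input only tra-2 and sdc-1, and sdc-1 and sdc-3, had ranges over libraries that did not overlap. In SART-3 input the ranges separated fem-1 from fem-2, fem-3 from tra-2, tra-2 from sdc-1, and sdc-1 from xol-1. her-1 exceeded 77.6% of the genes with a count in LIN41 input and 78.1% in SART-3 input, and sdc-3 exceeded 21% and 20.9%. The place of her-1 depended on the length used: with the exon length of the WBcel235 annotation, 1127 bp, an alternative chosen after seeing the data, her-1 was at 37.3 CPM per kb in LIN41 input and 37.7 CPM per kb in SART-3 input.

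**Figure D4:**
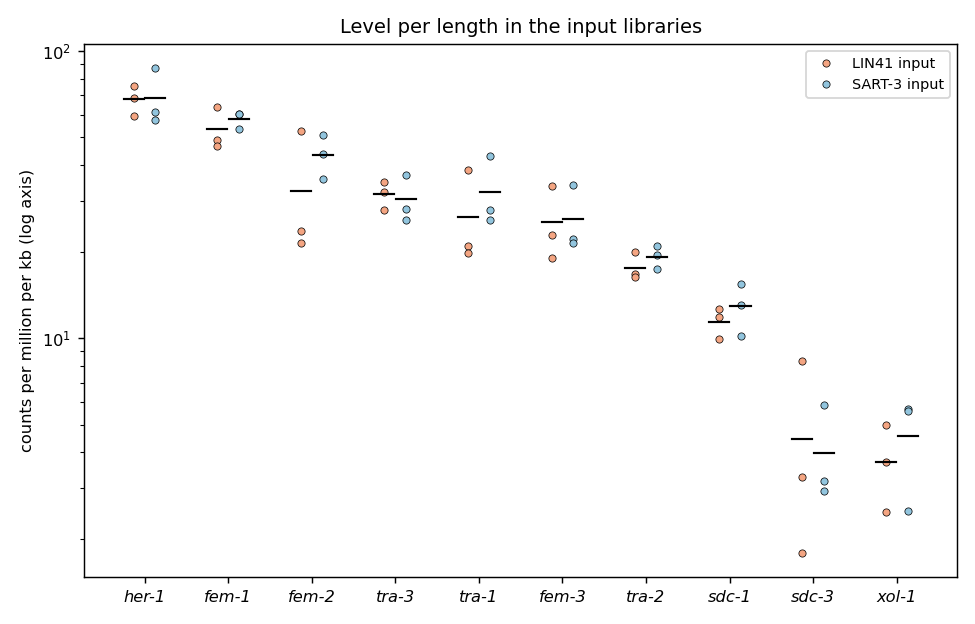
Level in CPM per kb of deposited gene length (vertical axis, logarithmic) of the 10 genes in the 3 LIN41 inputs and the 3 SART-3 inputs, with the group means as lines and the genes in the order of LIN41 input. The means span 67.9 (her-1) to 3.71 (xol-1) in LIN41 input, and the points of most neighbouring genes overlap.

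None of the 9 genes differed between LIN41 input and SART-3 input by the edgeR quasi-likelihood test, where 1.32% of all genes were called higher and 0.0914% lower. None had an unadjusted p under 0.05, against 854 genes higher and 259 lower among all genes, and DESeq2 and limma-voom called none either. The 2 lowest adjusted p-values by edgeR belonged to tra-1 (log2 -0.32, 95% interval -0.673 to 0.0326, adjusted p = 0.638) and fem-2 (log2 -0.46, 95% interval -0.966 to 0.055, adjusted p = 0.65). her-1 was at -0.05 (95% interval -0.505 to 0.413), and the other values lay between -0.15 for sdc-1 and 0.10 for sdc-3.

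For tra-1 and fem-2 the outcome rested on replicate 1. Without replicate 1, fem-2 was lower in LIN41 input by -0.83 (adjusted p = 0.00308) and tra-1 by -0.41 (adjusted p = 0.0317), and without LIN41 input replicate 1 alone fem-2 was at -0.77 (adjusted p = 0.0497). In the fit without replicate 1, 8.53% of all genes were called lower and 1844 genes were called higher.

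Replicate 1 differed from replicates 2 and 3 in several of these genes, and tra-1, fem-1 and fem-2 were higher in replicate 1 in every group. On the log2 CPM scale (prior count 2), tra-1 in replicate 1 was above the mean of replicates 2 and 3 by 1.44 in LIN41 IP, 0.895 in LIN41 input, 0.8 in SART-3 IP and 0.67 in SART-3 input. fem-2 was above it by 1.39, 1.17, 0.695 and 0.349 in the same groups, and fem-1 by 0.656, 0.408, 0.302 and 0.0829. sdc-3 was above it in the inputs, by 1.64 with LIN41 and 0.863 with SART-3, and below it in the IPs, at -0.395 and -0.359. tra-3 was below it in all 4 groups, between -0.466 and -0.0329. Over all tested genes the middle 50% of this difference ran between -0.702 and 0.548 in LIN41 IP, between -0.646 and 0.49 in LIN41 input, between -0.433 and 0.404 in SART-3 IP and between -0.301 and 0.345 in SART-3 input. These are differences between cultures of 1 group, described without a test.

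**Figure D5:**
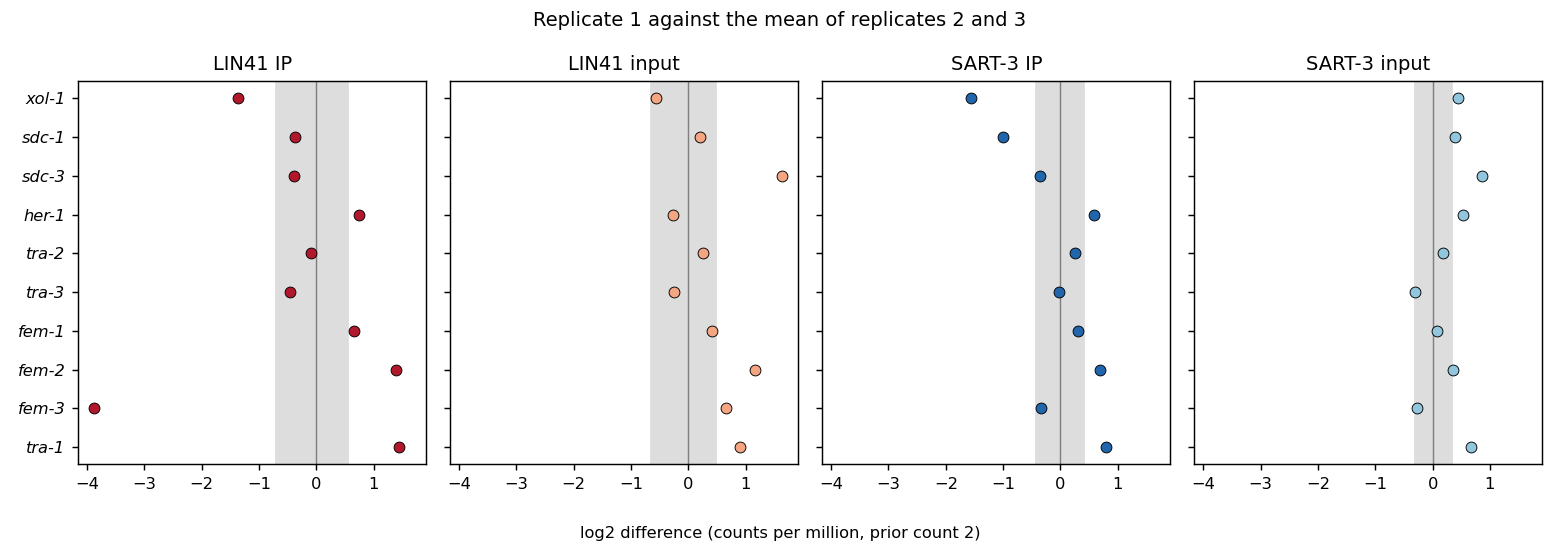
Replicate 1 minus the mean of replicates 2 and 3 on the log2 CPM scale (horizontal axis) for the 10 genes in the 4 groups, with the middle 50% of all tested genes as a grey band. tra-1 and fem-2 lie to the right in all 4 groups, between 0.67 and 1.44 for tra-1 and between 0.349 and 1.39 for fem-2, and fem-3 in LIN41 IP, with 0 counts in replicate 1, lies at -3.88.

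Among the markers of sex and germ cells, the sum over the sperm genes rose from replicate 1 to replicate 3 in every group. The summed level of 17 sperm genes was 444, 699 and 1620 CPM in LIN41 IPs 1, 2 and 3 against 377, 812 and 1410 CPM in the LIN41 inputs, with all 17 but msd-1 detected. It was 234, 434 and 1060 CPM in the SART-3 IPs against 147, 406 and 846 CPM in the SART-3 inputs. Sperm form in males and also in hermaphrodites of the fourth larval stage, so this list does not separate the sexes. The 10 genes of male sensory neurons, which include the polycystin genes lov-1 and pkd-2, summed to 21.9 to 73.2 CPM in the LIN41 IPs and 29 to 44.4 CPM in the LIN41 inputs, and to 18.5 to 41.2 CPM in the SART-3 IPs and 18.1 to 36.9 CPM in the SART-3 inputs; lov-1 was at 0 in both IPs, and pkd-2 and trf-1 were at 0 in LIN41 IP. Genes of oocytes and of the germline were detected throughout, with sums of 133 to 323 CPM over 7 genes and 732 to 949 CPM over 10 genes. The 6 yolk protein genes, made by adult hermaphrodites, summed to 63.1 to 165 CPM in the LIN41 IPs against 14.2 to 54 CPM in the LIN41 inputs, and to 48.8 to 64.8 CPM in the SART-3 IPs against 20.9 to 25.1 CPM in the SART-3 inputs, with vit-3 at 0 in LIN41 IP, LIN41 input and SART-3 input, vit-4 at 0 in LIN41 IP and vit-5 at 0 in SART-3 input. The part of the makeup of the cultures in the values of the pathway genes was not tested.

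Around these 10 genes, 5 lists named 49 further genes of the pathway, of which 45 were found in the table and 39 were tested. In LIN41 IP against LIN41 input 3 of the 39 were higher and 6 lower, where 8.87% of all genes were higher and 5.33% lower. In SART-3 IP against SART-3 input 1 was higher and 8 were lower, where 10.5% of all genes were higher and 7.79% lower. The lists were chosen with earlier results of these data known, and no difference between a list and the other genes was tested. These counts were made without length offsets, although length went with the ratio over all genes (Spearman's rho -0.452 with LIN41 and -0.501 with SART-3). The part of length in the values of the listed genes was not tested. The median log2 value of the 39 was -0.25 with LIN41, against -0.07 over all genes, -0.33 with SART-3, against -0.03, and -0.13 between LIN41 input and SART-3 input, against 0.01.

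Upstream, 3 of the 5 X signal genes, which count X chromosomes ahead of xol-1 or counter that count, were tested. sea-2 was lower in both IPs, by -1.92 with LIN41 (adjusted p = 0.0251) and -1.24 with SART-3 (adjusted p = 0.0458). All 8 dosage compensation genes were tested. capg-1, a condensin subunit, was lower in LIN41 IP by -1.07 (adjusted p = 0.0488) and in SART-3 IP by -1.62 (adjusted p = 0.00388), and in SART-3 IP dpy-21 (-1.04, adjusted p = 0.0286) and dpy-27 (-0.74, adjusted p = 0.0279) were lower as well. Over all genes 5.33% were called lower with LIN41 and 7.79% with SART-3, and these small counts were not tested against those shares.

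Of 15 tested regulators of tra-2, fem-3 and germline sex, 2 were lower in each IP. A count of 2 among 15 genes is too small to be set apart from the shares over all genes (5.33% with LIN41 and 7.79% with SART-3). In LIN41 IP they were gld-1 (-1.92, adjusted p = 0.00582), whose STAR protein represses tra-2 mRNA, and nos-3 (-1.03, adjusted p = 0.0412), a Nanos relative that acts on fem-3. In SART-3 IP they were atx-2 (-1.14, adjusted p = 0.0242) and nos-3 (-1.03, adjusted p = 0.0159). Of 7 tested partners of the TRA and FEM proteins, tra-4 was lower in LIN41 IP (-1.01, adjusted p = 0.0318) and rbx-1, the RING subunit of cullin ligases, was higher in SART-3 IP (0.67, adjusted p = 0.0216). Over all genes 5.33% were called lower with LIN41 and 10.5% higher with SART-3. A count of 1 among 7 genes is too small to be set apart from these shares.

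LIN41-specific enrichment was called for 2 of 6 tested genes in the list of TRA-1 targets and sex-specific differentiation genes (edgeR quasi-likelihood test), where 0.0415% of all genes were called higher. The list holds mRNAs that the study itself picked out as bound by LIN41 from these libraries, mab-3, dmd-3 and lin-29, so its count is not independent evidence. mab-3 was enriched by 2.35 (SE 0.287, adjusted p = 0.00139) and lin-29 by 4.06 (SE 0.643, adjusted p = 0.0181), and the DM-domain gene dmd-3 had 3.34 (SE 0.633, adjusted p = 0.0848). The replicates of lin-29 were uneven, at 2160, 510 and 464 CPM in the LIN41 IPs and 19.7, 85.8 and 65.5 CPM in the SART-3 IPs. In the SART-3 IPs dmd-3 had only 1, 5 and 6 counts. The call of dmd-3 depended on the test: with edgeR's likelihood ratio test, which the study's methods name, its adjusted p was 0.000304 (log2 3.36), and 7 of all genes were called higher, against 5 with the quasi-likelihood test. mab-3, a DM-domain gene repressed by TRA-1 in hermaphrodites, had 242, 318 and 331 CPM in the LIN41 IPs against 50.5, 50.2 and 79.1 CPM in the LIN41 inputs, and 39.4, 87.5 and 65.5 CPM in the SART-3 IPs against 50.2, 71.2 and 85.4 CPM in the SART-3 inputs. In IP against input, mab-3 (2.29), dmd-3 (1.80) and lin-29 (3.99 on the log2 scale) were higher and dmd-7 (-1.43) lower with LIN41, and dmd-3 (-1.54) and dmd-7 (-0.99) lower with SART-3. tra-1 itself, which acts directly upstream of mab-3, had an enrichment of 0.28.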

How the data were processed

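The authors counted reads per gene and deposited 1 table of raw counts for the 12 libraries. Per the study's methods, reads with the same 5' end were first collapsed to 1, which caps highly covered genes, then aligned with QuasR and SpliceMap and counted over annotated exons. The methods name the ce6 genome and the submitters' processing notes ce10. Positions in the report come from the WBcel235 annotation, a later assembly, and were not used for counting. Of the 20182 identifiers 18778 (93%) were matched to a symbol. Deposited gene lengths were multiples of 3 for 96.6% of genes, as coding lengths are, but not for her-1, tra-2 and fem-1. The deposited lengths of tra-2 and fem-1, 4742 and 1978 bp, were still near their WBcel235 coding lengths, 4736 and 1975 bp. That of her-1, 619 bp, was longer than its WBcel235 coding length, 525 bp.

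Groups and replicate numbers came from the sample titles. Counts were tested with edgeR 4.0.16 in R 4.3.3 (TMM factors, filterByExpr by group, quasi-likelihood F test, two-sided, Benjamini-Hochberg adjusted over 12036 genes, called under 0.05; biological coefficient of variation 0.167). The model held replicate number, library type, protein and their interaction, as in the study's methods, with replicate number in place of sequencing batch, which the labels do not give. Same-numbered libraries mostly deviated together: of 12 pairs in the groups compared directly, 12 had a correlation over 0.1 (0.295 to 0.729, 9712 genes). Of all 18 pairs 17 did, and the lowest was 0.0359, for replicate 2 of LIN41 input and SART-3 IP. The replicate block was kept. Each IP was made from the lysate of its input. Standard errors were derived from the F statistic. Functions were checked on simulated data.

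Alternatives were the likelihood ratio test, no block, a block per lysate, DESeq2 1.42.0, voom (limma 3.58.1), other scaling factors, other filters on low counts, another threshold, length offsets (lowess span 0.3), and leaving out each replicate and library. All 10 genes are named, and of each further list up to 4 called genes with the largest log2 value. The genes and lists were chosen with earlier results of these data known. 4 listed genes (mog-3, mog-6, laf-1, sup-26) were not analysed here.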

Additional observations from a re-analysis of the deposited data

How the results depend on the processing

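Of 952 values of single pathway genes under the alternatives, 917 stayed on their side of the threshold, 29 lost and 6 gained a call, and no called value reversed; 89 uncalled values changed sign. LIN41-specific enrichment was called for 0 of these genes under every alternative. Of the 2 genes called in LIN41 IP against LIN41 input, 1 remained (her-1) with no replicate block, DESeq2, limma-voom or at least 10 counts in every library, where sdc-3 was not tested, and 1 to 2 when a replicate or library was left out. With length offsets her-1 remained as well, sdc-3 was lost and tra-1 gained a call. Of the 3 in SART-3 IP against SART-3 input, 1 remained (her-1) with no replicate block, in which tra-2 had adjusted p = 0.0996 and sdc-3 adjusted p = 0.064, and 0 to 3 with a replicate or library left out; between the inputs these fits gave 0 to 2, against 0. The causes were not tested.

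Over all genes, the fits without single replicates or libraries called 168 to 2149 genes in LIN41 IP against LIN41 input (1067 higher and 641 lower in the reported fit), 44 to 3768 in SART-3 IP against SART-3 input (1262 and 938), 3 to 2863 between the inputs (159 and 11) and 0 to 8 for the enrichment (5 and 0). The other alternatives gave 611 (no replicate block) to 2934 (total counts), 684 (no replicate block) to 3324 (adjusted p under 0.1), 0 (no replicate block) to 418 (likelihood ratio test) and 0 (no replicate block) to 9 (no filter) in these comparisons. With total counts the split was 693 higher and 2241 lower with LIN41 and 776 and 2256 with SART-3.

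Scaled by total counts, tra-2 was at 21.8 and fem-1 at 65.6 CPM per kb in SART-3 input. With the WBcel235 exon length, chosen after seeing the data, her-1 was at 37.3, tra-3 at 24.7 and xol-1 at 2.37 CPM per kb in LIN41 input, and her-1 at 37.7, tra-1 at 21.8, tra-3 at 23.6, fem-1 at 48.8, fem-2 at 32.7 and fem-3 at 18 CPM per kb in SART-3 input. The largest deviation of a single library from its group mean for xol-1, that of SART-3 IP replicate 1, was 1.04 below the mean on the log2 CPM scale with a prior count of 2 and 2.06 below it with 0.5. Depth limits xol-1, sdc-3 and fem-3 most, with 12, 7 and 22 reads in the LIN41 IPs and 5, 6 and 24 in the SART-3 IPs.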
